A study of Mus musculus with 10 samples.

Results

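The genes of purinergic signalling described here encode the receptors through which allergic effector cells sense nucleotides outside the cell, and the surface enzymes that take those nucleotides apart. Extracellular ATP, set free by damaged or activated cells, opens the P2X receptors, which are cation channels. ADP and UDP-sugars act on P2Y receptors, which couple to G proteins. CD39, encoded by *Entpd1*, strips phosphates from ATP and ADP to leave AMP, and CD73, encoded by *Nt5e*, turns AMP into adenosine, which has receptors of its own. In mast cells and macrophages of the mouse, P2X7 is the receptor that responds to high ATP, and it is known for activation of the NLRP3 inflammasome and release of interleukin-1.

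The set was made of 10 genes, chosen by 1 measured value, the much higher *P2rx7* signal of unstimulated *Slpi*-/- basophils relative to B6 basophils. A gene was measured where a probe set carried its symbol and no other. This held for 7 of the 10 genes, each with 1 probe set, out of 19937 named genes: the channel genes *P2rx1*, *P2rx4* and *P2rx7*, the G protein-coupled receptor genes *P2ry1* and *P2ry14*, and the ectonucleotidase genes *Entpd1* and *Nt5e*. *Adora3* shares its probe set with another gene, and *Adora2a* and *Adora2b* had no entry in the annotation used here, so these 3 adenosine receptor genes were not analysed. The *P2rx7* signals of unstimulated basophils chose the set. Every genotype value of basophils, and every *P2rx7* comparison with unstimulated basophils on a side, is therefore a description with no test. The *P2rx7* tests between other arrays take their standard error (SE) from fits that include those signals.

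Affymetrix arrays (Mouse Gene 1.0 ST) were hybridised with RNA of C57BL6/N bone marrow (BM) cultures, 10 in all and 1 per condition. Each condition was made from *Slpi*-/- mice, which lack the secretory leukoprotease inhibitor SLPI, and from wild-type B6 mice. BM-derived eosinophils (BMEos), grown with FLT3 ligand and stem cell factor and then interleukin (IL)-5, were measured after 3 h of lipopolysaccharide (LPS) and without it. BM-derived basophils (BMBs), grown with IL-3 and isolated as c-kit- DX5+ cells, were measured after 1 h with anti-TNP IgE followed by 12 h with the antigen TNP-ovalbumin, and without stimulation. Mast cells, grown with IL-3 in a longer culture, were measured without stimulation. Neither the age of the mice nor how many mice or cultures went into an array is given in the sources used here. The genotypes stand in for replicates, so p-values measure only how unlike their differences were on these arrays. No spread between replicate cultures enters them.

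Values are log2 signals, and a difference of 1 is a 2-fold change. Background was set on each array from 1027 olfactory receptor genes, taken as silent in these cells, at their 95th percentile, and lay between 5.56 and 5.78. Where a gene lay below background on 1 side of a comparison, an "at least" fold sets those signals to background. An adjusted p beside such a fold belongs to the limma difference of the signals as read. *Slpi* itself had signals of 5.93 and 6.41 in *Slpi*-/- BMEos, against 7.96 and 8.08 in B6 BMEos, with and without LPS. In BMBs its signals were 6.35 and 6.55 in *Slpi*-/- cells, against 11.33 and 11.42 in B6 cells, with and without IgE. It was 6.47 in *Slpi*-/- and 6.53 in B6 mast cells, so the labels of the mast cell pair have no check from *Slpi*. All 6 basophil markers lay above background on the 4 BMB arrays and all 6 eosinophil markers on the 4 BMEos arrays. Of 7 mast cell markers, 7 lay above background on the *Slpi*-/- and 6 on the B6 mast cell array. The unstimulated B6 BMB array stood apart from the other BMB arrays, with 5 of 7 neutrophil and granulocyte precursor markers above background. The arrays with LPS stood apart from those without LPS in sex-linked genes. *Xist*, which is transcribed from an inactive X chromosome, had signals of 9.66 and 9.72 with LPS, against 4.90 and 4.15 without, in *Slpi*-/- and B6 BMEos. The Y-linked *Eif2s3y* had 3.54 and 3.22 with LPS, against 8.45 and 8.20 without. An effect of LPS and of the sex of the cells therefore cannot be told apart on the BMEos arrays. In all comparisons, a lower share of cells that carry a transcript and less transcript per cell cannot be told apart either.

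The start regions of the members with the largest differences between BMBs with and without IgE and antigen are shown here. *P2rx7* and *P2rx4* lie side by side on chromosome 5 and both read lower with that stimulus. *Entpd1* and *Nt5e* lie on chromosomes 19 and 9 and both rose. All are from RefSeq on GRCm38.p6, plus strand, from 250 bases before to 50 bases after the annotated start. *P2rx7* has 2 listed starts, at chr5:122643677-122643976 and chr5:122650133-122650432. The *P2rx4* window is chr5:122707294-122707593. The window of the first of 2 *Entpd1* starts is chr19:40612116-40612415, and that of *Nt5e* is chr9:88327359-88327658. Capitals mark matches, on either strand, to the AP-1 site TGANTCA, the GATA site AGATAA, the GC box GGGCGG and the core TGACG of the cAMP response element.
P2rx7, first start: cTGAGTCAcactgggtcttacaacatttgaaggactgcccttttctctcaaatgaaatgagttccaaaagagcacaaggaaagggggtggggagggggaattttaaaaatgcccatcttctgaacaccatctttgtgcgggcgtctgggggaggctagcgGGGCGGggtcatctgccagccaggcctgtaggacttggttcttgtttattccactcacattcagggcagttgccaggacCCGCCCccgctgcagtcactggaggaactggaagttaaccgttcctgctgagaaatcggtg
P2rx7, second start: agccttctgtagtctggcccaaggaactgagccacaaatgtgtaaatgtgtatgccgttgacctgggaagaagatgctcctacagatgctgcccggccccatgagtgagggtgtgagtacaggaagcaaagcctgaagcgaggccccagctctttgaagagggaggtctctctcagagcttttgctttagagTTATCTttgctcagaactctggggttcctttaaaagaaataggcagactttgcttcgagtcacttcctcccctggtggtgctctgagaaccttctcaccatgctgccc
P2rx4: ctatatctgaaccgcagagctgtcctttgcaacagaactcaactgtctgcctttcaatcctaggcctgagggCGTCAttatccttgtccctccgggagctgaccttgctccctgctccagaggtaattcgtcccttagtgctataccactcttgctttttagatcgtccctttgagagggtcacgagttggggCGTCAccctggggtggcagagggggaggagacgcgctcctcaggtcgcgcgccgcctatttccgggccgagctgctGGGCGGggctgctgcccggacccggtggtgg
Entpd1, first start: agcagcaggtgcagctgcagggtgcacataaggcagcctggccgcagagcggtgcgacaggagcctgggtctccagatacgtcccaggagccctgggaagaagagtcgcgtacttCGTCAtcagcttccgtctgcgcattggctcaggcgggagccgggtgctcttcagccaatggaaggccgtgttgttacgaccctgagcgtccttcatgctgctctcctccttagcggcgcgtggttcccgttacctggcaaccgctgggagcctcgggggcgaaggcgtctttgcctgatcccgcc
Nt5e: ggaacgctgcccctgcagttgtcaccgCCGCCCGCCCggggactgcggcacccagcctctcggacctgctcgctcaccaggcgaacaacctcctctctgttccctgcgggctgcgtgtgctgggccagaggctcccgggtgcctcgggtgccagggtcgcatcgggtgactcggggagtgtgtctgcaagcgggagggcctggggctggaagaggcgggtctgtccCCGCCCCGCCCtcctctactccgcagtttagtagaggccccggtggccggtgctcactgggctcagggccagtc
The first *P2rx7* start held 1 AP-1 match and 2 GC boxes, and the second start held 1 GATA match. *P2rx4* held 1 GC box and 2 matches to the TGACG core. *Entpd1* held 1 match to that core and *Nt5e* held 4 GC boxes in overlapping pairs. Of 32851 RefSeq start windows of this length, 7.81% hold the AP-1 site, 11.2% the GATA site, 35.7% the GC box and 20.8% the TGACG core. The motifs were picked after the values were known, and a match is a description of the letters only.

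*P2rx7* had its highest signals in mast cells, intermediate and unequal signals in BMBs, and signals at or near background in BMEos. On the mast cell arrays it read 10.96 in *Slpi*-/- and 10.84 in B6 cells. In unstimulated BMBs it read 9.63 in *Slpi*-/- and 7.60 in B6 cells, and with IgE and antigen 6.72 in *Slpi*-/- and 6.18 in B6 cells. BMEos had 6.16 in *Slpi*-/- and 6.05 in B6 cells with LPS, and 5.70 in *Slpi*-/- and 5.95 in B6 cells without. The 10 signals spanned 5.26 on the log2 scale, the widest range of the 7 genes. All 10 lay above the background of their arrays, but the lowest exceeded it by little (5.70 against 5.68), and 5 did with background set at the 99th percentile instead. The order was mast cells, *Slpi*-/- BMBs, B6 BMBs, BMBs with IgE and antigen, and BMEos. The 4 BMEos signals and the B6 BMB signal with IgE lay between 5.70 and 6.18, where their order says little.

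**Figure D1:**
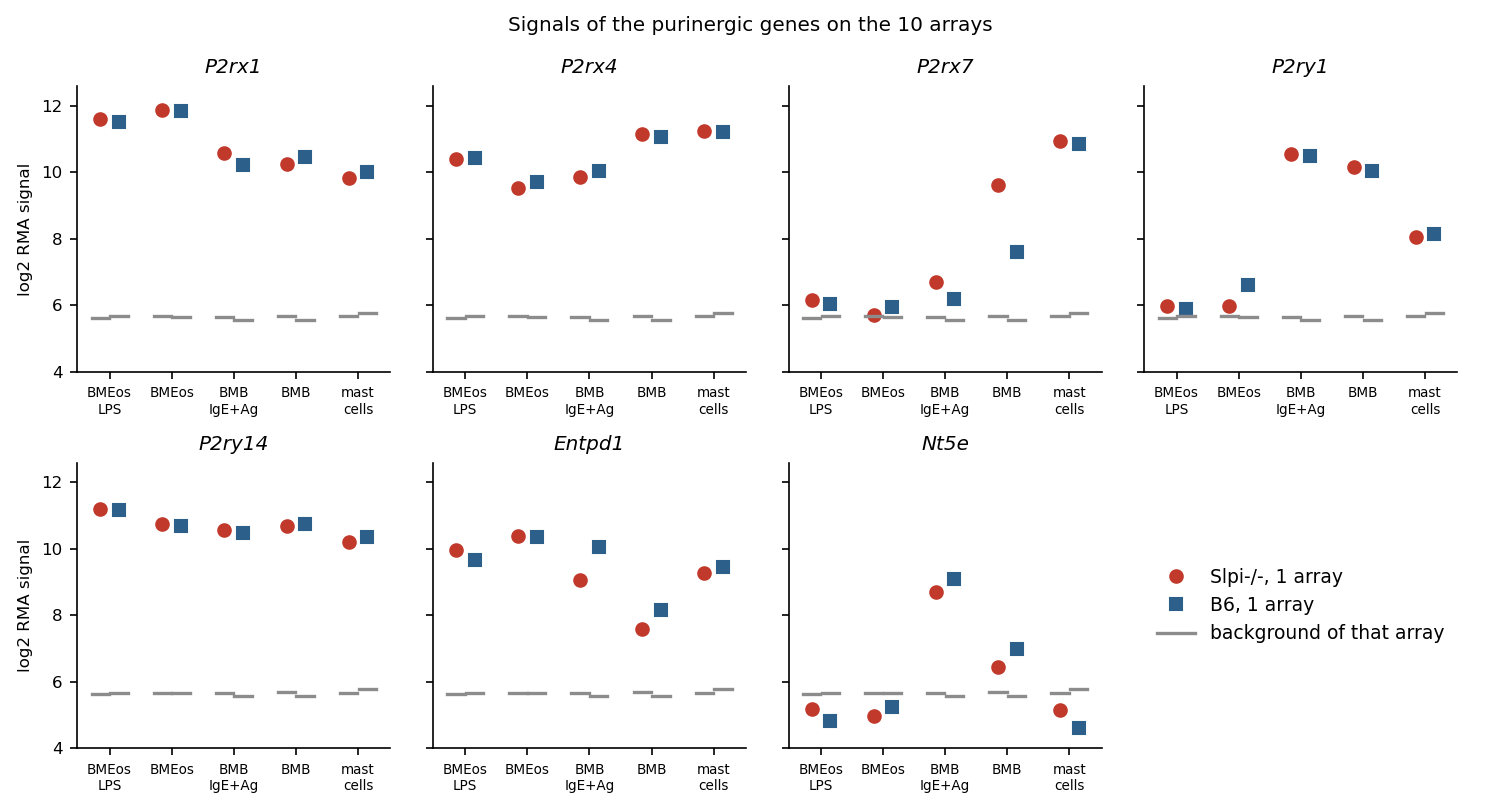
Log2 RMA signals (vertical axis) of the 7 measured genes in BMEos with and without LPS, BMBs with and without IgE and antigen, and mast cells, 1 point per array (*Slpi*-/- circles, B6 squares), with the background of each array as a grey bar. *P2rx7* stands at 10.96 and 10.84 in mast cells and at 9.63 and 7.60 in unstimulated *Slpi*-/- and B6 BMBs, and *Nt5e* lies above background on the 4 BMB arrays.

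The gap of *P2rx7* between the genotypes was large on 1 of the 5 pairs of arrays. In unstimulated BMBs the *Slpi*-/- signal was higher by 2.03 on the log2 scale (4.08-fold), which ranked 2 of 12262 named genes above background on either array. On that pair 0.269% of these genes were at least 2-fold higher and 0.514% at least 2-fold lower in *Slpi*-/- cells, and *P2rx7* was the 1 member among them. After IgE and antigen the *Slpi*-/- signal was higher by 0.54 (1.45-fold), at rank 223 of 12165. In the other pairs the difference was 0.12 in mast cells, -0.25 in BMEos and 0.10 in BMEos with LPS. Centring or quantile normalization of the arrays gave 1.98 and 2.08 for the unstimulated BMB pair, and 1 array per genotype gives no replicate check.

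Markers of the cells that could be mixed into the BMB cultures were read beside this value, and their part in it was not tested. The mast cell list had a mean signal of 8.6 in *Slpi*-/- and 8.64 in B6 unstimulated BMBs and 6 of 7 markers above background on each array. Within it, *Kit*, the stem cell factor receptor gene, read 6.79 in *Slpi*-/- and 6.89 in B6 BMBs, against 12.80 and 12.78 on the *Slpi*-/- and B6 mast cell arrays. *Cma1*, a mast cell chymase gene, read 5.79 and 5.61, against 12.19 and 11.99 on the *Slpi*-/- and B6 mast cell arrays. The neutrophil and precursor list had a mean of 5.15 in *Slpi*-/- and 6.47 in B6 BMBs, and 5 of its 7 genes were at least 2-fold lower in *Slpi*-/- cells. *Mpo*, the myeloperoxidase gene of granulocyte precursors, read 6.0 in *Slpi*-/- and 8.84 in B6 BMBs, and the elastase gene *Elane* read 5.47 and 7.14. The dendritic cell list had a mean of 6.87 in *Slpi*-/- and 6.45 in B6 BMBs, with 4 and 5 of 6 markers above background. Its genes *Cd74*, an MHC class II chaperone, and *Itgax*, an integrin gene, read 9.47 and 7.12 in *Slpi*-/- BMBs, against 8.47 and 6.12 in B6 BMBs. The macrophage and monocyte list had a mean of 7.67 in *Slpi*-/- and 7.93 in B6 BMBs, with 4 of 5 markers above background on each array. The progenitor genes *Cd34* and *Meis1* read 8.97 and 8.19 in *Slpi*-/- BMBs, against 8.62 and 7.65 in B6 BMBs. On the mast cell arrays they read 11.49 and 8.88 in *Slpi*-/- and 11.28 and 8.41 in B6 cells. Of the remaining lists, megakaryocyte and platelet genes averaged 10.07 in *Slpi*-/- and 10.14 in B6 BMBs, eosinophil genes 5.70 and 5.49, and 0 of 2 B cell genes lay above background. The 7 T and NK cell markers had means of 4.92 in *Slpi*-/- and 4.84 in B6 BMBs, with 2 of 7 above background on each array.

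**Figure D2:**
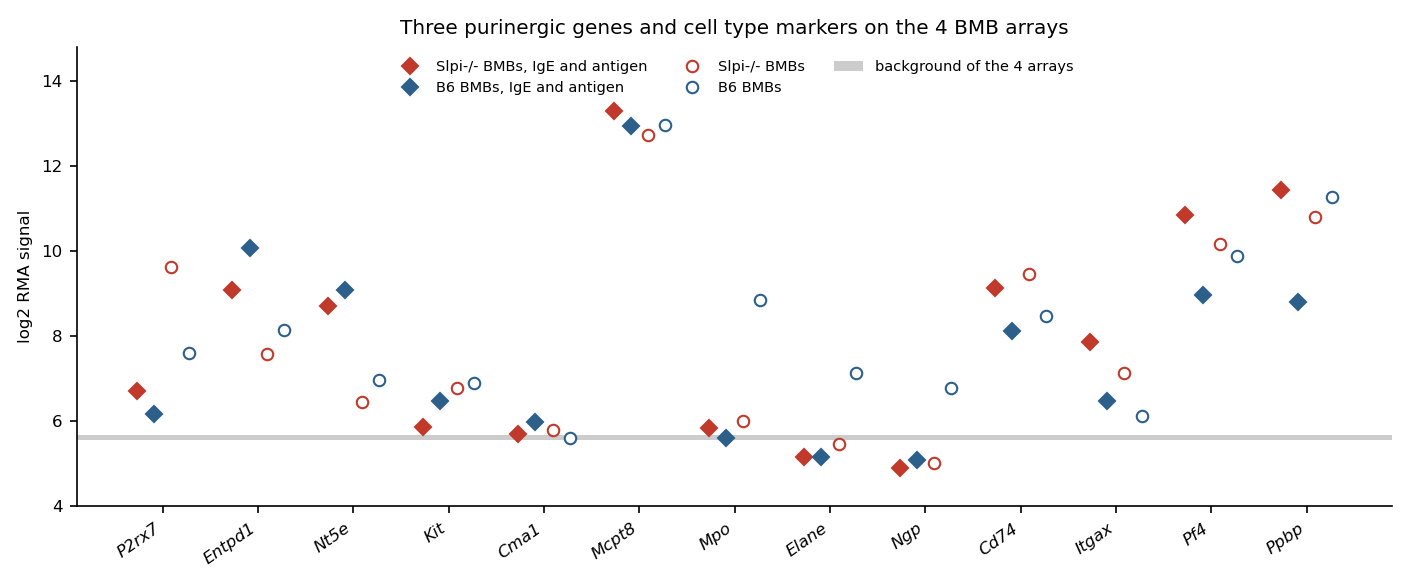
Log2 RMA signals (vertical axis) of *P2rx7*, *Entpd1*, *Nt5e* and cell type markers on the 4 BMB arrays (filled diamonds with IgE and antigen, open circles without, *Slpi*-/- red, B6 blue), with the background range as a grey band. The mast cell genes *Kit* and *Cma1* differ little between the open circles, while *Mpo* reads 6.0 in *Slpi*-/- and 8.84 in B6 BMBs.

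The genes next to *P2rx7* had smaller gaps. In RefSeq order, *P2rx7* lies between *Ift81* and *P2rx4*, with *Atp2a2* and *Camkk2* outside them. In unstimulated BMBs the *Slpi*-/- minus B6 difference was 0.08 in *P2rx4*, -0.15 in *Camkk2* and -0.13 in *Atp2a2*, while *Ift81* lay below background. By profile over the 10 arrays, the genes most like *P2rx7* among 13570 others were *Tmem273*, *Angpt1* and *Hs3st1*, by the mean absolute difference of signals centred on each gene's mean (0.44, 0.47 and 0.47). *Tmem273* read 7.40 in *Slpi*-/- and 6.33 in B6 BMBs, against 10.49 and 10.39 in the *Slpi*-/- and B6 mast cells. *Hs3st1*, a heparan sulfate sulfotransferase gene, read 8.08 in *Slpi*-/- and 7.43 in B6 BMBs, while *Angpt1*, which encodes angiopoietin-1, read 6.05 and 6.60, lower in *Slpi*-/- cells. These profiles were compared on the same arrays that chose *P2rx7* and are a description.

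*P2rx1* and *P2rx4*, the other channel genes, were read well above background on all 10 arrays and ran in opposite directions between the cell types. *P2rx1*, whose channel closes quickly after ATP and serves in platelets, read 11.61 in *Slpi*-/- and 11.51 in B6 BMEos with LPS and 11.88 and 11.84 without. It read 10.58 in *Slpi*-/- and 10.23 in B6 BMBs with IgE and antigen, 10.26 and 10.47 without, and 9.82 and 10.01 in mast cells. The 4 BMEos signals lay above all others. *P2rx4*, whose channel resides largely in lysosomes, read 10.40 in *Slpi*-/- and 10.44 in B6 BMEos with LPS and 9.52 and 9.71 without. It read 9.86 in *Slpi*-/- and 10.03 in B6 BMBs with IgE and antigen, 11.15 and 11.06 without, and 11.25 and 11.21 in mast cells. Here unstimulated BMBs and mast cells lay highest, and unstimulated BMEos lowest.

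*P2ry1*, which encodes an ADP receptor, set BMBs apart, and *P2ry14*, which encodes a receptor of UDP-sugars, varied least. *P2ry1* read 5.97 in *Slpi*-/- and 5.88 in B6 BMEos with LPS and 5.98 and 6.61 without, close to background. It read 10.55 in *Slpi*-/- and 10.50 in B6 BMBs with IgE and antigen, 10.16 and 10.05 without, and 8.04 and 8.15 in mast cells. No signals of the 3 cell types overlapped. *P2ry14* read 11.20 in *Slpi*-/- and 11.18 in B6 BMEos with LPS and 10.76 and 10.69 without. It read 10.56 in *Slpi*-/- and 10.49 in B6 BMBs with IgE and antigen, 10.69 and 10.74 without, and 10.20 and 10.36 in mast cells. Its 10 signals spanned 1.00 on the log2 scale, against 4.67 for *P2ry1*. The genes with the profile most like *P2ry1* were *Creb3l2*, *Slc41a2* and *Pea15a*, with mean absolute differences of 0.31, 0.33 and 0.34 over the 10 arrays.

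Both ectonucleotidase genes read higher in BMBs with stimulation than without, and they ran apart between the cell types. *Entpd1* read 9.07 in *Slpi*-/- and 10.06 in B6 BMBs with IgE and antigen, against 7.58 and 8.15 without. It read 9.96 in *Slpi*-/- and 9.66 in B6 BMEos with LPS and 10.40 and 10.34 without, and 9.27 and 9.46 in mast cells. *Nt5e* read 8.70 in *Slpi*-/- and 9.09 in B6 BMBs with IgE and antigen, against 6.45 and 6.98 without. On the 4 BMEos arrays and both mast cell arrays *Nt5e* lay below background, between 4.61 and 5.24, where its values have no order. The profile most like that of *Nt5e* belonged to *Dock4*, a guanine nucleotide exchange factor gene, with signals of 8.27 and 8.39 in *Slpi*-/- and B6 BMBs with IgE and antigen, against 5.93 and 6.79 without (mean absolute difference 0.27).

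In BMBs with IgE and antigen, both ectonucleotidase genes rose and *P2rx4* fell. In limma over all 10 arrays, with the genotypes as the pairs, *Nt5e* rose by 2.18 on the log2 scale (4.53-fold, SE 0.16, adjusted p = 9.56e-04). The *Nt5e* rise was 2.25 in *Slpi*-/- and 2.11 in B6 BMBs. *Entpd1* rose by 1.71 (3.26-fold, SE 0.13, adjusted p = 0.00113 from limma), by 1.5 in *Slpi*-/- and 1.91 in B6 BMBs. *P2rx4* fell by 1.16 (2.24-fold, SE 0.11, adjusted p = 0.00160 from limma), with -1.29 in *Slpi*-/- and -1.03 in B6 BMBs. The stimulated and unstimulated signals did not overlap in these 3 genes, but nor did they in *P2ry1* and *P2ry14*, which did not pass. The share of all genes without overlap was not determined, so lack of overlap is a description only. Thus 3 of the 6 members tested changed, 2 of them higher and 1 lower, where 22.8% of all 13571 genes tested did (12.2% higher and 10.6% lower). The median difference was 0.23 over these members and -0.02 over all genes. *P2ry1* differed by 0.43 (adjusted p = 0.126), *P2ry14* by -0.19 (adjusted p = 0.215) and *P2rx1* by 0.04 (adjusted p = 0.873, all from limma), and none of these passed. *P2ry1* passed when the BMB arrays were fitted alone, while the limma calls of *Nt5e*, *Entpd1* and *P2rx4* stood without either genotype's pair.

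*P2rx7* was lower with IgE and antigen in both genotypes, a value given with no test because the unstimulated *Slpi*-/- array chose the gene. The difference was -2.91 in *Slpi*-/- BMBs (7.52-fold) and -1.42 in B6 BMBs (2.68-fold), with a mean of -2.17. On the *Slpi*-/- pair it ranked 8 from the lowest of 12088 genes, and on the B6 pair 74 from the lowest of 12435. With the stimulus, the signals (6.72 in *Slpi*-/- and 6.18 in B6 BMBs) stood against backgrounds of 5.65 and 5.56. Of its neighbours, *P2rx4* also fell, as given above. *Atp2a2*, the calcium pump gene of the endoplasmic reticulum, rose by 0.59 (SE 0.10, adjusted p = 0.00830) and *Camkk2*, a calmodulin-dependent kinase kinase gene, rose by 0.36 (SE 0.09, adjusted p = 0.0356, both from limma). Beside these changes, the megakaryocyte and platelet genes differed between the BMB arrays with IgE. *Pf4* read 10.85 in *Slpi*-/- and 8.96 in B6 BMBs with IgE and antigen, against 10.16 and 9.88 without, and *Ppbp* read 11.45 and 8.81, against 10.81 and 11.27. In that list, 3 of 4 measured genes were at least 2-fold higher in *Slpi*-/- BMBs with IgE, with means of 10.45 in *Slpi*-/- and 8.84 in B6 cells, and its part in the values above was not tested.

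In BMEos with LPS, which also differed in sex-linked genes, *P2rx4* and *P2ry14* rose and *Entpd1* fell. *P2rx4* rose by 0.81 on the log2 scale (1.75-fold, SE 0.11, adjusted p = 0.00298 from limma), by 0.88 in *Slpi*-/- and 0.73 in B6 BMEos. *P2ry14* rose by 0.46 (SE 0.09, adjusted p = 0.0140 from limma), by 0.44 and 0.49 in *Slpi*-/- and B6 BMEos. *Entpd1* fell by 0.56 (SE 0.13, adjusted p = 0.0223 from limma), with -0.44 and -0.68 in *Slpi*-/- and B6 BMEos. Signals with and without LPS did not overlap in these 3 genes, but nor did they in *P2rx1*, *P2rx7* and *P2ry1*, which did not pass. In *P2ry1* the *Slpi*-/- signals were 5.97 with LPS and 5.98 without. Here too the share of all genes without overlap was not determined. This made 3 of 7 members, 2 higher and 1 lower, where 28.9% of the 13571 genes tested changed (12.7% higher and 16.2% lower). The median difference was -0.12 over the members and 0.02 over all genes. *P2rx1* differed by -0.31 (adjusted p = 0.156), *P2ry1* by -0.36 (adjusted p = 0.151) and *P2rx7* by 0.28 (adjusted p = 0.533, all from limma), and none passed. The SE of *P2rx7* (0.31) includes the unequal IgE changes of the BMB pairs, which hold the signals that chose the set. With the BMEos arrays fitted alone, its adjusted p was 0.118 from limma. *Nt5e*, counted among the 7, entered the fit through the BMB arrays and stayed below background on the BMEos arrays. The limma calls of *P2ry14* and *Entpd1* were lost when either genotype's pair was left out, that of *Entpd1* also without the genotype term, and that of *P2rx4* stood without either pair. *P2rx4* and *Entpd1* passed in both stimulus comparisons, *P2rx4* lower with IgE and antigen in BMBs and higher with LPS in BMEos, and *Entpd1* the other way round. The stimuli were not tested against each other.

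**Figure D3:**
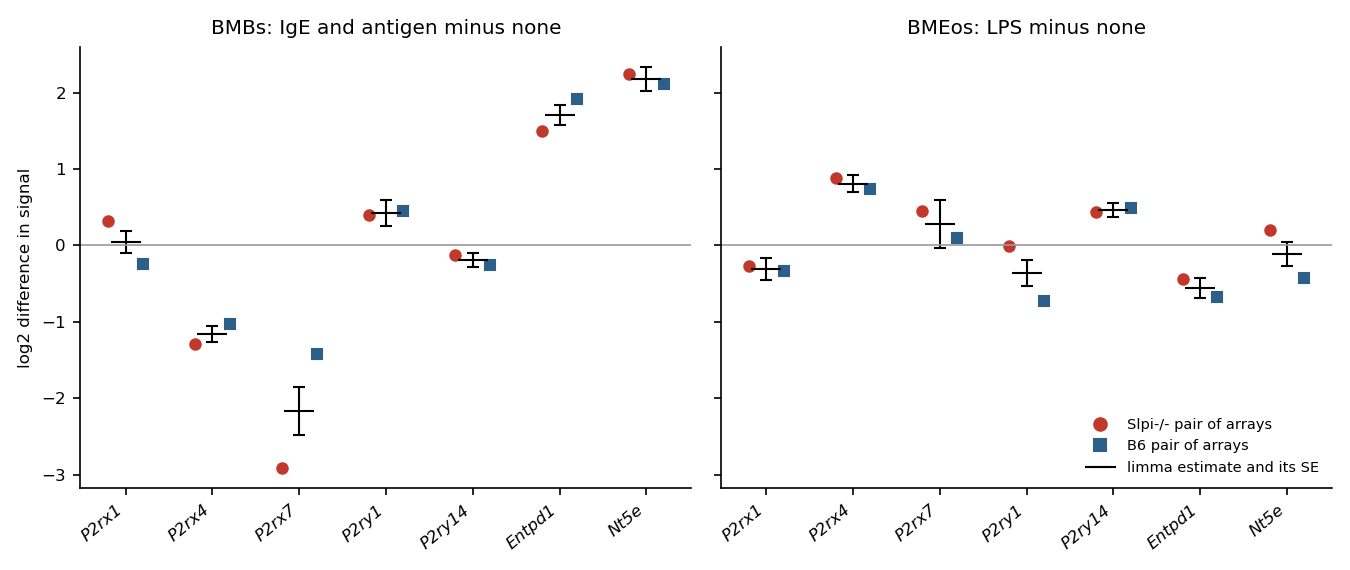
Log2 differences in signal (vertical axis) of the 7 genes, IgE and antigen minus none in BMBs (left) and LPS minus none in BMEos (right), for the *Slpi*-/- pair (circles) and the B6 pair (squares), with the limma estimate and its SE (black). *Entpd1* (1.71) and *Nt5e* (2.18) lie highest and *P2rx7* (-2.17) lowest for IgE, and *P2rx4* lies at -1.16 for IgE and at 0.81 for LPS.

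Between the unstimulated cell types, most members tested differed. The fit of the 6 unstimulated arrays, with genotypes as pairs, tested 12998 genes. The *P2rx7* values of the BMB arrays chose the gene, so *P2rx7* was tested between BMEos and mast cells only, with an SE (0.48) that includes the gap between the BMB arrays. In BMEos against mast cells, *P2rx1* rose by 1.94 (3.85-fold, SE 0.11, adjusted p = 9.94e-06) and *Entpd1* rose by 1.01 (SE 0.15, adjusted p = 0.00141), each in both genotypes. *P2rx7* fell by 5.07 (33.7-fold, adjusted p = 1.41e-04), *P2ry1* fell by 1.80 (SE 0.17, adjusted p = 1.51e-04) and *P2rx4* fell by 1.62 (SE 0.11, adjusted p = 2.56e-05, all from limma). The smaller rise of *P2ry14* was 0.44 (SE 0.10, adjusted p = 0.0101 from limma). Thus 6 of 7 members passed, 3 higher and 3 lower, where 51.1% of all genes passed (24.3% higher and 26.8% lower), with a median of 0.22 over the members and -0.04 over all genes. *Nt5e*, counted among the 7, was below background in both and entered the fit through the BMB arrays.

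In BMBs against mast cells, *P2ry1* rose by 2.0 (4.01-fold, SE 0.17, adjusted p = 1.55e-04), averaging 10.10 ± 0.08 in BMBs and 8.10 ± 0.08 in mast cells (SD, n = 2 arrays each, 1 per genotype). *Nt5e* was higher by 1.83 (SE 0.23, adjusted p = 9.86e-04), and at least 1.98-fold higher with its mast cell signals, which lay below background, set to background. *Nt5e* entered this fit only through the BMB arrays, where it is high. The filter therefore favoured this call, which the count below includes. *Entpd1* fell by 1.5 (2.83-fold, SE 0.15, adjusted p = 3.35e-04, all from limma). *P2rx7* differed by -2.29, given with no test. For *P2rx7* the genotypes gave unequal differences, -1.33 in *Slpi*-/- and -3.24 in B6 cells. Its estimate was -1.24 without the unstimulated B6 BMB array and -3.33 without the *Slpi*-/- one. *P2rx1* rose by 0.44 (SE 0.11, adjusted p = 0.0169) and *P2ry14* by 0.43 (SE 0.10, adjusted p = 0.0160, both from limma). Without the unstimulated B6 BMB array, which carried the precursor transcripts, neither passed and 3 members were called, and without the *Slpi*-/- one *P2ry14* did not pass. *P2rx4* differed by -0.13 (adjusted p = 0.422 from limma). Thus 5 of 6 members passed, 4 higher and 1 lower, where 36.7% of genes passed (18.8% higher and 17.9% lower), with a median of 0.44 over the members and -0.01 over all genes.

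In BMEos against BMBs, *P2ry1* fell by 3.81 (14-fold, SE 0.17, adjusted p = 9.23e-06) and *P2rx4* fell by 1.49 (2.82-fold, SE 0.11, adjusted p = 7.21e-05). *P2rx7* differed by -2.79, given with no test, with -3.93 in *Slpi*-/- and -1.65 in B6 cells, and by -1.74 when the unstimulated *Slpi*-/- BMB array was left out. *Nt5e* was at least 2.07-fold lower in BMEos (adjusted p = 0.00172). *Entpd1* rose by 2.51 (5.69-fold, SE 0.15, adjusted p = 3.31e-05) and *P2rx1* by 1.5 (2.83-fold, SE 0.11, adjusted p = 6.58e-05, all from limma). *P2ry14* differed by 0.01 (adjusted p = 0.957 from limma). With 2 members higher and 3 lower, 5 of 6 passed, where 39.7% of genes did (18.6% higher and 21.2% lower), with a median of -0.74 over the members and -0.03 over all genes. The 3 cell type comparisons share arrays, so their counts are not separate evidence. By the methods' paired t-test 0 members passed after adjustment in these comparisons or in those of IgE and LPS, where 1516 to 3545 genes had an unadjusted p under 0.05 and at most 1 passed.

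In BMEos, no member differed between the genotypes by the test. Over the pairs with and without LPS, 0 of 7 members passed (limma, adjusted p from 0.927 to 0.998), and before adjustment 0 did either. Among the 7, *Nt5e* lay below background on these arrays. The SE of *P2rx7* (0.31) again includes the unequal IgE changes of the BMB pairs. Of all genes, 0.00737% passed, 785 did so before adjustment, and the methods' t-test passed 0. The widest BMEos difference was -0.63 in *P2ry1* without LPS, with signals of 5.98 in *Slpi*-/- and 6.61 in B6 cells, and it was 0.09 with LPS. In BMBs, the ectonucleotidase genes were lower in *Slpi*-/- cells in both states, given here with no test. *Entpd1* differed by -0.99 with IgE and antigen (1.98-fold), at rank 28 from the lowest of 12165 genes, and by -0.57 without (1.48-fold). For *Nt5e* the difference was -0.39 with IgE and antigen and -0.53 without. With IgE and antigen, 0.477% of genes were at least 2-fold higher and 0.214% at least 2-fold lower in *Slpi*-/- BMBs, none of them a member. *P2rx1* differed by 0.35 with IgE and antigen and by -0.21 without. The BMB differences of *P2rx4*, *P2ry1* and *P2ry14* lay between -0.17 and 0.11. In mast cells, the 6 members above background differed by -0.19 to 0.12.

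**Figure D4:**
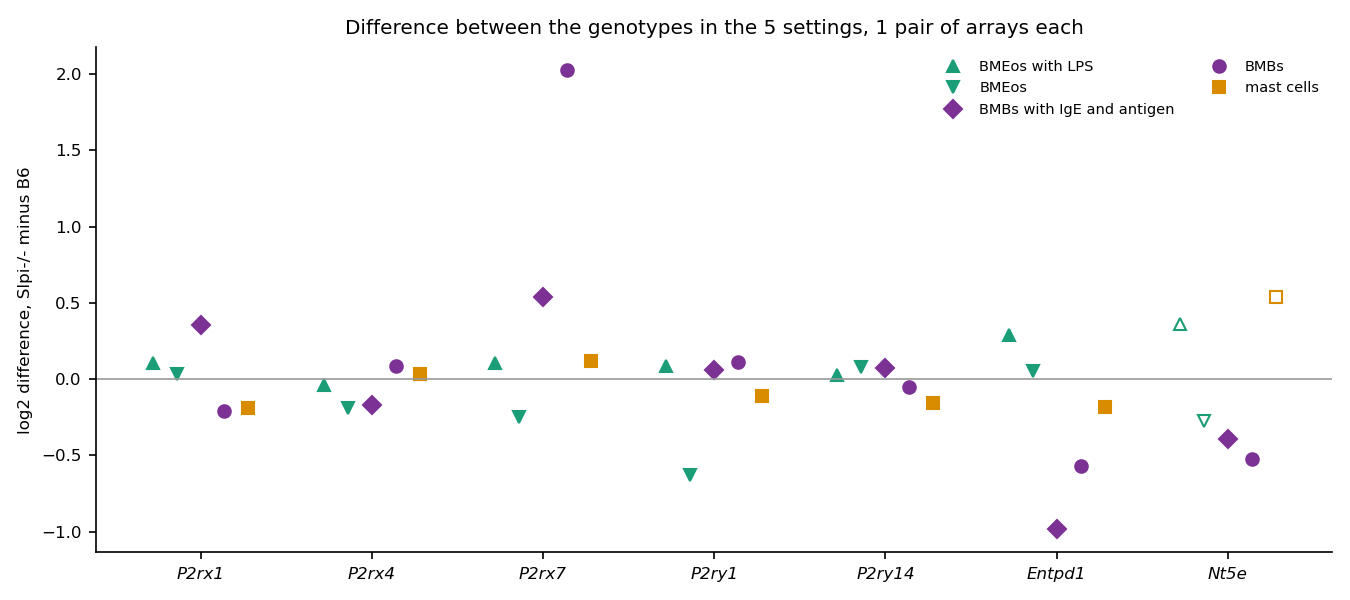
Log2 difference between *Slpi*-/- and B6 cells (vertical axis) for each of the 7 genes in 5 settings, 1 pair of arrays per point, with open points where both arrays were below background. *P2rx7* in unstimulated BMBs, which chose the set, lies at 2.03, and *Entpd1* in BMBs with IgE and antigen lies lowest at -0.99.

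Of 13 other listed receptor genes of the P2 family and its relatives, 12 were measured and 7 tested. With IgE and antigen, where 22.8% of all genes passed, 0 of 7 rose and 1 fell: *Gpr34*, which encodes a lysophospholipid receptor related to P2Y receptors, by 1.04 (adjusted p = 0.00144 from limma). With LPS, where 28.9% of all genes passed, 2 of 7 rose and 2 fell. *P2ry10*, another lysophospholipid receptor gene, fell by 2.61 (adjusted p = 4.23e-05), reading 6.86 and 6.67 in *Slpi*-/- and B6 BMEos with LPS, against 9.36 and 9.38 without. *P2ry10* lies on the X chromosome, and these arrays also differ in sex-linked genes. *P2ry2*, a receptor gene for ATP and UTP, fell by 1.31 (adjusted p = 5.69e-04) and *P2ry13*, an ADP receptor gene, rose by 0.82 (adjusted p = 0.0474, all from limma). *P2ry2* was higher in BMEos in both cell type comparisons, by 2.93 against mast cells and by 2.67 against BMBs. In BMBs against mast cells, where 36.7% of all genes passed, 2 of 7 rose and 1 fell, among them *P2ry10*, which rose by 2.88 and was above background on 1 of 2 mast cell arrays, and *Gpr171*, which fell by 2.28.

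Among other surface enzymes of nucleotides and NAD, of which 7 of 15 were tested, 1 rose and 0 fell with IgE and antigen, against the 22.8% of all genes. This was *Entpd7*, an NTPDase gene of internal membranes, by 1.01 (adjusted p = 0.00282 from limma), at 9.56 and 9.56 in *Slpi*-/- and B6 BMBs with the stimulus, against 8.36 and 8.73 without. With LPS 0 rose and 2 fell (28.9% of all genes), *Entpd4* by 1.34 and *Entpd6* by 0.70. In BMEos against BMBs 2 rose and 3 fell (39.7% of all genes), and *Bst1*, an NAD-consuming ectoenzyme gene below background in BMBs, was at least 3.88-fold higher (adjusted p = 2.06e-04 from limma). Of 10 tested genes that handle adenosine and other nucleotides, 3 rose and 1 fell with IgE and antigen. *Adk*, the adenosine kinase gene, fell by 1.13 (adjusted p = 0.00174), while the adenosine transporter gene *Slc29a1* rose by 0.68 (adjusted p = 0.00831) and the deaminase gene *Ada* by 0.54 (adjusted p = 0.0173, all from limma). With LPS 0 of these 10 genes rose and 2 fell. In BMEos against BMBs 4 rose and 3 fell, led by *Ampd3*, an AMP deaminase gene, up by 3.03. Of 5 tested genes of ATP release, 1 rose and 1 fell with IgE and antigen, the vesicular nucleotide transporter gene *Slc17a9* by 0.65 and *Calhm2* by -0.62, and with LPS 0 of 5 passed in limma. For these lists too, the shares over all genes were 22.8% with IgE and antigen, 28.9% with LPS and 39.7% for BMEos against BMBs, and no list was tested against them.

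Genes listed with P2X7 and the inflammasome changed in both directions. In BMBs with IgE and antigen, where *P2rx7* was lower, 3 of 11 tested genes rose and 3 fell, where 12.2% of all genes rose and 10.6% fell. *Il1b*, the IL-1β gene, rose by 2.89 (adjusted p = 3.60e-04) and *Il1a*, below background without the stimulus, was at least 3.8-fold higher (adjusted p = 2.23e-04, both from limma). *Il1b* read 10.91 and 11.01 in *Slpi*-/- and B6 BMBs with the stimulus, against 7.97 and 8.18 without. *Ano6*, a scramblase gene, fell by 0.83 and *Gsdmd*, the gasdermin D gene, by 0.49. In BMEos with LPS, 5 of 11 rose and 2 fell, where 12.7% of all genes rose and 16.2% fell. *Il1a* and the caspase gene *Casp4* lay below background without LPS and were at least 13.2-fold and 6.64-fold higher with it. *Il1b* rose by 4.64, with 1 of its 2 signals without LPS above background, and *Casp1* rose by 1.46. In BMBs against mast cells, 6 of 10 rose and 2 fell, where 18.8% of all genes rose and 17.9% fell. Among those that rose were *Casp1*, up by 1.33, and the inflammasome adaptor gene *Pycard*, up by 1.04. In BMEos against mast cells, 3 of 10 rose and 5 fell, where 24.3% of all genes rose and 26.8% fell. *Nlrp3*, the inflammasome sensor gene, was at least 12.2-fold lower, with signals of 4.01 and 4.92 in *Slpi*-/- and B6 BMEos, below background, against 9.31 and 9.23 in *Slpi*-/- and B6 mast cells. *P2rx7*, too, was highest in mast cells and near background in BMEos. *Pycard* and *Gsdmd*, among the 3 that rose, went the other way. They were higher in BMEos by 2.05 (adjusted p = 4.97e-06) and 2.04 (adjusted p = 9.94e-06, both from limma). In *Slpi*-/- against B6 BMEos, none of the tested genes of the 5 lists passed, where 0.00737% of all genes did.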

How the data were processed

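The authors hybridised RNA of 10 conditions to Affymetrix Mouse Gene 1.0 ST arrays, summarized the probes by RMA (Bioconductor, affy) and deposited log2 signals, used here as deposited (0.572 to 14.1). Of 34760 probe sets, 21640 carry 1 gene symbol, 1321 several and 11799 none. The probe set with the highest mean stood for a gene. The build of the array annotation is not given in the sources used here, so gene coordinates are those of RefSeq start windows only, and gene IDs were matched for chromosome and order.

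Tests used limma 3.58.1 in R 4.3.3 (lmFit, eBayes, two-sided, Benjamini-Hochberg over all genes above background on at least 1 array of the fit, threshold 0.05). The fit of 10 arrays (a mean per cell type and genotype, IgE and LPS terms) had 2 residual and 4.48 prior degrees of freedom, and that of 6 unstimulated arrays (cell type and genotype) 2 and 4.75. On simulated data with known changes, the IgE comparison (13571 genes) recovered 93% of log2 changes of 1 and 100% of changes of 2. It gave 12 false among 205 calls. BMBs against mast cells (12998 genes) recovered 89% and 100%, with 15 false among 204 calls. The measured data gave 3091 and 4769 calls in these comparisons, so far fewer genes changed in the simulation. With 1 array per condition, the spread between replicate cultures is not known from these arrays. The rates therefore describe the simulated data and are not error rates of the calls reported here. Python 3.11.15, pandas 2.3.3 and matplotlib 3.10.9 made tables and figures. Precision is limited by having 1 array per condition. All arrays were used.

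The members and lists were chosen with earlier results of these data known. Named genes were all measured members, up to 4 per list and comparison by the largest called difference, the most similar profiles, and neighbours of *P2rx7*. Cell type markers came from fixed lists, and markers named singly and the motifs were chosen after their values were seen. Alternatives were centring, quantile normalization, averaged probe sets, no filter, another background, a variance trend, other arrays or terms in the fit, arrays left out and the paired t-test that the methods name.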

Additional observations from a re-analysis of the deposited data

Results flagged for a closer look

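Among the 7 members, 2 differed in direction between the genotypes under a stimulus. *P2rx1* differed with IgE and antigen by 0.32 on the log2 scale in *Slpi*-/- BMBs and by -0.24 in B6 BMBs. *Nt5e* differed with LPS by 0.20 in *Slpi*-/- BMEos and by -0.43 in B6 BMEos, where it lay below background on all 4 arrays. Each value rests on 1 pair of arrays, and neither difference between the genotypes was tested.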

How the results depend on the processing

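The number of members called was 3 of 6 for IgE and antigen, 3 of 7 for LPS, 5 of 6 for BMBs against mast cells and for BMEos against BMBs, and 6 of 7 for BMEos against mast cells. It stayed within 1.5 times of these values under other scalings, filters, backgrounds and fits. The methods' paired t-test, which has 1 degree of freedom on 2 pairs, called 0 members in each of these 5 comparisons. With arrays left out, the number was 3 to 3 for IgE, 1 to 2 for LPS (1 without the B6 pair), 3 to 4 for BMBs against mast cells (3 without the unstimulated B6 BMB array), 5 to 5 for BMEos against BMBs and 0 to 0 for the genotype in BMEos. The setting without the unstimulated B6 BMB array was chosen after seeing the data, for its precursor transcripts. Leaving out a genotype in the cell type comparisons leaves no residual degrees of freedom, and gave values with no test. Differences that changed sign had not passed. *P2rx1* with IgE gave -0.0046 after quantile normalization, -0.24 without the unstimulated *Slpi*-/- array, and -0.24 to 0.32 without a genotype's pair. *Nt5e* with LPS gave -0.43 to 0.20 without a genotype's pair. For the genotype in BMEos without 1 of its pairs, *P2rx7* gave -0.25 to 0.10, *P2ry1* -0.63 to 0.088 and *Nt5e* -0.27 to 0.36. *P2ry1* with LPS passed without the *Slpi*-/- pair, as did *P2rx1* with LPS in the BMEos arrays alone. Each group had 1 array, so no replicate numbers could pair samples. The genotypes served as pairs instead, and without that term the member counts were 3 for IgE, 2 for LPS, 5 for BMBs against mast cells and for BMEos against BMBs, and 6 for BMEos against mast cells.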
